A study of Mus musculus with 32 samples.

Results

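The genes for 10 secreted chemokine ligands were described, Ccl2, Ccl3, Ccl4, Ccl6, Ccl8, Ccl9, Ccl24, Cxcl2, Cxcl13 and Pf4, which are 10 of the 24940 genes in the deposited expression table. They were chosen by name, with earlier results of these data known, so counts set beside all genes describe them and are no blind test. Their symbols stand in the table's annotation, and all 10 were found. RNA was measured by RNA-seq and open chromatin by ATAC-seq, which cuts accessible DNA with a transposase, in 4 kinds of mononuclear phagocyte sorted from mouse lung. These were alveolar macrophages (AM, of the airspaces), interstitial macrophages (IM, of the tissue itself) and 2 kinds of monocyte, inflammatory (iMo) and patrolling (pMo), which 1 field of the labels names macrophages instead. The mice were of the inbred strains C57BL6/J and DBA2/J, written C57BL6J and DBA2J below, and all are labelled as given no treatment. Each cell type and strain had 2 RNA-seq libraries, 16 in 8 groups, and 1 ATAC-seq peak list made from 2 libraries. The cells were sorted on Ly6c, Ly6g, SiglecF, CD64, CD11b, CD11c, F4/80 and CD45 after lungs were dissociated for 15 min at 37 °C. Whether replicates are separate animals is not labelled, and the p-values cover only the spread between libraries, which may be technical.

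Chemokines are small secreted proteins that bind G-protein-coupled receptors on white blood cells and direct their movement. CC and CXC ligands differ in the spacing of their first cysteines, and most ligands share receptors with others. Lung macrophages and monocytes are known sources of many of them, and transcription of several of these genes rises fast after inflammatory signals or handling of cells. Among the genes here, Cxcl2 attracts neutrophils through CXCR2, Cxcl13 attracts B cells through CXCR5, and Pf4 encodes platelet factor, best known from platelet granules. Ccl2 attracts monocytes through CCR2, mouse Ccl8 acts through CCR8 and Ccl24 attracts eosinophils through CCR3. Ccl3 and Ccl4 attract monocytes and T cells, and Ccl3, Ccl6 and Ccl9 are ligands of CCR1.

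Levels are in TPM, reads per base of each gene scaled to the library, which the authors computed over each gene's genomic span, introns included, so levels of 2 genes compare only on that scale. Each TPM value times the span was a whole multiple of 1 number per library (within 0.05 of a read for 94.4% to 99.3% of the values checked). The reads behind every value could therefore be worked out, and the libraries held 6676150 to 22616573 reads in genes. The entries Rn45s and Mir6236, which are ribosomal, took 22.6% to 67.6% of the TPM sum, the highest shares in AM. With the values as deposited the median log2 difference of all genes was -0.68 for AM minus IM, and with median-of-ratios scaling it was 0.06. The other medians were -0.55, -0.42, 0.26 and 0.13 as deposited for AM minus iMo, AM minus pMo, IM minus pMo and iMo minus pMo, and between -0.05 and 0.02 with that scaling. Defining markers fitted the sorts: the summed level of 11 AM markers was 3768 to 4587 TPM in AM and at most 1919 elsewhere, and that of 10 patrolling monocyte markers was 5144 to 6610 TPM in pMo and at most 2693 elsewhere. The 10 IM markers summed to 9667 to 19465 TPM in IM, 4305 to 6138 TPM in iMo and 4913 to 6054 TPM in pMo. By the tests described below, 8 were called higher and 1 lower in IM than in iMo (21.7% and 15.6% of all genes). The counts against pMo were the same (30.3% and 9.2%). Among them C1qa was at 1061 TPM ± 525 (SD, n = 4) in IM and at most 30.0 in any other library. The 8 iMo markers summed to 2340 to 3296 TPM in iMo and to 1240 to 1934 TPM in IM. Markers of other cells were present too: the 10 neutrophil markers summed to 2875 to 4728 TPM in IM against at most 240 in the other 12 libraries, led by S100a8, Csf3r and S100a9.

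Sequences before the annotated starts show what the start-site peaks discussed further on lie next to. Of the 10 genes 7 had an entry among the RefSeq promoters of build GRCm38.p6: Ccl3, Ccl6, Ccl8, Ccl9, Cxcl2, Cxcl13 and Pf4. Shown are the 250 bases up to the start for Cxcl2, with a start-site peak in all 8 lists (chr5:90903649-90903898, plus strand), Cxcl13, with none (chr5:95956689-95956938, plus strand), the neighbours Ccl9 (chr11:83578637-83578886, minus strand) and Ccl6 (chr11:83593088-83593337, minus strand), and Ccl3 (chr11:83649379-83649628, minus strand), whose strain difference changed sign between cell types. Capitals mark matches on either strand to GGG and CC with any 5 bases between (NF-kB), TGANTCA (AP-1), TTGCNNAA (C/EBP) or GAGGAA (PU.1).
Cxcl2: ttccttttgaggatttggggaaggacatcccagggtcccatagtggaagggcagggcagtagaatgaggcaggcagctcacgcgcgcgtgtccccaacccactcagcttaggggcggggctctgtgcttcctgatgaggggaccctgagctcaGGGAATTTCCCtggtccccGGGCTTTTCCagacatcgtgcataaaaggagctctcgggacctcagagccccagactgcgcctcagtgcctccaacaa
Cxcl13: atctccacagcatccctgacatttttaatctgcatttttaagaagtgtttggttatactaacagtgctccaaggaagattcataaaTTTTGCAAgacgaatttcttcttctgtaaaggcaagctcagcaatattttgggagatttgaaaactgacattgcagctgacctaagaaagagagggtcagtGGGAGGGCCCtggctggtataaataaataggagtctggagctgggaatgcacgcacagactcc
Ccl9: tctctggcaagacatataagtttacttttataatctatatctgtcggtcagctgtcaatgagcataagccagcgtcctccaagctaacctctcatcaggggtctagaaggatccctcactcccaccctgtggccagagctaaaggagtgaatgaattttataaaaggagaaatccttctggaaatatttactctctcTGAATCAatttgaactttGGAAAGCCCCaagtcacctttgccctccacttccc
Ccl6: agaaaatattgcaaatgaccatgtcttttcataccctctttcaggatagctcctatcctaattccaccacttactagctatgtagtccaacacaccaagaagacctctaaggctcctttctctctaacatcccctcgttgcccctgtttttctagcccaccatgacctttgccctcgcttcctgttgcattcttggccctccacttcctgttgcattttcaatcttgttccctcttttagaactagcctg
Ccl3: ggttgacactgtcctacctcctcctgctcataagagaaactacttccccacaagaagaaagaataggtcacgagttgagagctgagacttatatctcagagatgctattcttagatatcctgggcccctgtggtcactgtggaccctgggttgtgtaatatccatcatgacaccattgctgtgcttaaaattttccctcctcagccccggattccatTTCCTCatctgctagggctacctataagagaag

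Cxcl2 held 3 NF-kB matches, the first pair overlapping at 97 to 87 bases before the start and the third at 78 to 69. Such a match is common: 45.8% of the 32851 promoters searched over the same length held one. Ccl9 held an AP-1 match at 53 to 47 bases before the start, as did 6.75% of promoters, and an NF-kB match at 35 to 26. Cxcl13 held a C/EBP match at 164 to 157 bases, found in 9.56% of promoters, and an NF-kB match at 63 to 54 that reads on both strands. Ccl3 held a PU.1 match at 33 to 28 bases (23.3% of promoters). Ccl6 held none of these, and none of the 7 held GAAA repeated with any 2 bases between (IRF, 2.98% of promoters) or TGCTGAC (MAF, 3.81%). The called peaks lay mostly beside these letters: a peak overlapped the first pair of Cxcl2 matches in 1 of 8 lists, the iMo DBA2J list, and the match at 78 to 69 in none.

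Interstitial macrophages carried the most RNA of most of these ligands. For 6 of the 10 genes, Cxcl2, Cxcl13, Pf4, Ccl2, Ccl8 and Ccl24, all 4 IM libraries stood above all 12 others, while 6.27% of the 12277 tested genes did so. A gene was tested when its mean was at least 1 TPM over the libraries, which all 10 were. Ccl8 and Ccl24 reached a mean of 1 TPM in IM alone, so they passed this filter only through IM. Their place highest in IM was thus largely fixed by the filter, and their part in the counts here describes and does not test. Without them the genes with all IM libraries highest were Cxcl2, Cxcl13, Pf4 and Ccl2. Calls are limma tests on log2(TPM + 1), a scale that understates the change of low genes, with p-values adjusted over all genes by Benjamini-Hochberg and a threshold of 0.05. In AM against IM 9 of the 10 were lower in AM and none higher, where 61.1% of all tested genes were called lower, 9.19% higher and 70.2% either way. Scaling moves that split: of all calls 13.1% were higher in AM as deposited and 53.5% with median-of-ratios, where 8 of the ligands were lower and 1 higher. Against iMo, IM had 8 higher and 0 lower (21.7% of genes called higher, 15.6% lower and 37.3% either way). Against pMo IM had 8 higher and 0 lower (30.3% higher, 9.2% lower and 39.5% either way). With median-of-ratios the share of all calls higher in IM went from 58.2% to 44.7% against iMo and from 76.7% to 45.7% against pMo, with the ligands at 8 higher and 1 lower, and 8 higher and 0 lower. The median of the 10 genes was 3.02 for IM minus iMo and 2.74 for IM minus pMo on the log2 scale, beside 0.10 and 0.26 for all genes. The plot of levels by library shows all 10.

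**Figure D1:**
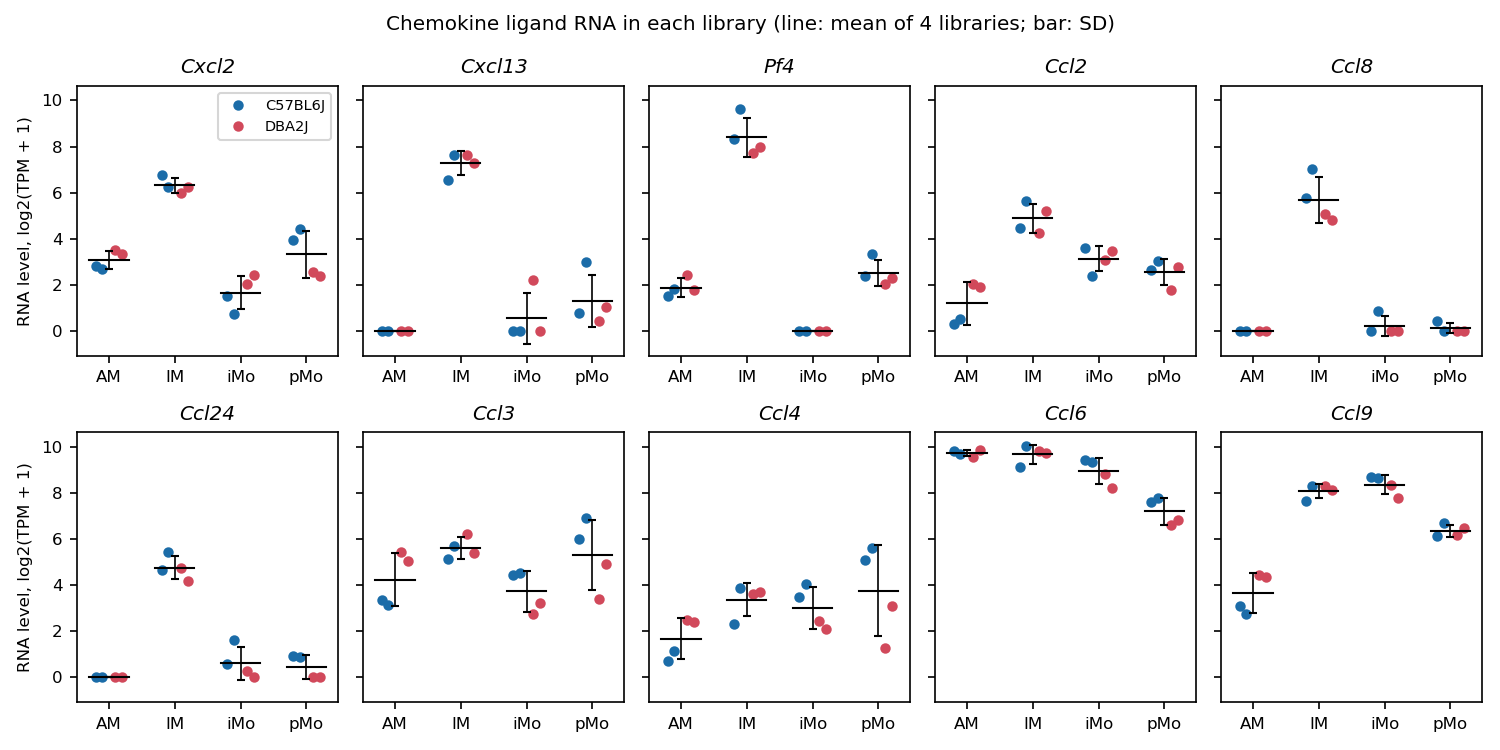
RNA level of each ligand, as log2(TPM + 1) on the y axis, in the 4 cell types on the x axis; each point is 1 library coloured by strain, the line is the mean of 4 libraries and the bar the SD. The IM libraries stand above all others for the top row and Ccl24, Ccl6 is high everywhere but lowest in pMo, and Ccl3 and Ccl4 separate by strain in AM, iMo and pMo.

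Of the CXC ligands, Cxcl2, the neutrophil attractant, was at 109, 73.9, 62.8 and 75.8 TPM in the IM libraries, given here and throughout as C57BL6J replicates 1 and 2 and then DBA2J replicates 1 and 2. In pMo it was at 14.3, 20.1, 4.85 and 4.22 TPM. All IM libraries were at least 3 times as high as any pMo library, and the pMo libraries split by strain. In AM Cxcl2 was at 6.15, 5.38, 10.3 and 8.98 TPM and in iMo at 1.85, 0.648, 3.06 and 4.33 TPM. The order was IM, then pMo and AM, then iMo. AM minus IM was -3.23 ± 0.20 (SE) on the log2 scale (limma, adjusted p = 1.42e-07), and AM minus iMo was 1.42 ± 0.20 (adjusted p = 7.90e-05). AM minus pMo did not pass over both strains (-0.23 ± 0.20, limma adjusted p = 0.326), but the sign depended on strain: -1.41 within C57BL6J (adjusted p = 0.0173) and 0.94 within DBA2J (adjusted p = 0.0105). The neutrophil marker sums given above rise in the same 4 IM libraries, with Ly6g itself at 1.12 TPM ± 0.781 (SD, n = 4) in IM; their part in the Cxcl2 level was not tested.

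Cxcl13, the B cell attractant, was found mostly in IM. It was at 91.5, 199, 199 and 155 TPM in IM and had 0 reads in all 4 AM libraries. Elsewhere it was at 0, 0, 3.63 and 0 TPM in iMo and 0.693, 6.83, 0.359 and 1.04 TPM in pMo. On the deposited scale the IM mean was at least 682-fold higher than that of AM, set against a floor of 3 reads per AM library (0.236 TPM). The bound does not allow for scaling. Median-of-ratios moved the median AM minus IM difference of all genes from -0.68 to 0.06 on the log2 scale, which would lower it. The limma differences were 6.72 ± 0.52 for IM minus iMo (adjusted p = 2.62e-06) and 5.98 ± 0.52 for IM minus pMo (adjusted p = 5.88e-06). The call of AM below pMo (adjusted p = 0.0474, limma) held in 10 of 28 alternatives. Markers of B cells, the cells Cxcl13 attracts, summed to 83.6 to 338 TPM in IM and 63.7 to 329 TPM in pMo, which overlapped. They summed to 56.8 to 135 TPM in iMo and 4.01 to 18.4 TPM in AM. Of 8 tested, 7 were called higher in IM than in iMo, 3 higher than in pMo, and 8 lower in AM than in IM, with 0 the other way. Over all genes 21.7%, 30.3% and 61.1% were called in those directions. The part of B cells in the Cxcl13 level was not tested.

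Pf4 was the most abundant of the 6 genes that peaked in IM, at 319, 791, 208 and 252 TPM. It was at 4.23, 9.02, 3.13 and 3.89 TPM in pMo and 1.82, 2.48, 4.44 and 2.42 TPM in AM, and no read was found in any iMo library. IM stood far above every other type, without overlap. On the deposited scale the IM mean was at least 135-fold above that of iMo (floor 2.91 TPM), and IM minus pMo was 5.90 ± 0.29 (limma, adjusted p = 8.77e-08). Without C57BL6J IM replicate 2 the bound was 89.2-fold. The 12 platelet markers summed to 23.9 to 38.2 TPM in IM, 18.7 to 47.7 TPM in pMo, at most 30.8 TPM in iMo and 9.47 to 13.5 TPM in AM. Itgb3, an integrin that macrophages and monocytes can also express, led in pMo with up to 33.6 TPM. The other 11, a split made after the values were seen, summed to 17.8 to 37.8 TPM in IM and 9.94 to 15.0 TPM in pMo. In iMo, which had no Pf4 read, these 11 summed to 9.13 to 22.9 TPM, overlapping IM, and in AM to 9.43 to 13.2 TPM. Their part in the Pf4 difference was not tested. Ppbp, another chemokine of platelet granules, was at 2.52 TPM ± 2.25 (SD, n = 4) in IM.

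Among the CC ligands of monocytes and eosinophils, Ccl2 was highest in IM at 21.0, 48.7, 18.2 and 35.5 TPM. It was at 11.2, 4.22, 7.33 and 9.94 TPM in iMo, 5.19, 7.30, 2.37 and 5.90 TPM in pMo and 0.231, 0.418, 3.14 and 2.79 TPM in AM. IM lay above all other types; iMo and pMo overlapped, and their difference did not pass (0.57 ± 0.35, limma adjusted p = 0.282). AM lay below every iMo library and overlapped pMo through DBA2J replicate 1, and AM minus IM was -3.69 ± 0.35 (adjusted p = 4.88e-06). Below pMo the AM call was weaker: -1.36 ± 0.35 over both strains, and -0.28 within DBA2J (limma, adjusted p = 0.627).

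Ccl8 was at 53.9, 129, 32.6 and 26.7 TPM in IM and had no read in AM. In the 8 monocyte libraries it had 1 read in 1 iMo library (0.818 TPM) and 1 read in 1 pMo library (0.355 TPM). IM was thus the single type with more than a stray read. On the deposited scale the IM mean was at least 100-fold higher than that of AM (floor 0.605 TPM), or 62.4-fold without C57BL6J IM replicate 2. Median-of-ratios scaling would lower these bounds. IM minus iMo was 5.45 ± 0.27 (limma, adjusted p = 9.73e-08).

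Ccl24, the eosinophil attractant, was at 24.6, 42.3, 25.9 and 17.3 TPM in IM, again with no read in AM. It was at 0.483, 2.12, 0.201 and 0 TPM in iMo and 0.919, 0.824, 0 and 0 TPM in pMo, all of them far below IM. On the deposited scale the IM mean was at least 87.8-fold higher than that of AM (floor 0.313 TPM), a bound that median-of-ratios scaling would lower. IM minus pMo was 4.31 ± 0.25 (limma, adjusted p = 3.04e-07). The 5 eosinophil markers summed to 0.706 to 3.77 TPM in IM, with 3 of them at 0, and to at most 11.9 TPM in AM. Calls of AM below iMo for Ccl24 (adjusted p = 0.0476) rest on 8 reads and held in 9 of 28 alternatives.

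Ccl6, Ccl9, Ccl3 and Ccl4 had other orders. Ccl6 was the most abundant of the 10 genes: 917, 821, 753 and 927 TPM in AM and 553, 1069, 916 and 853 TPM in IM. It was at 691, 643, 448 and 294 TPM in iMo and 194, 218, 95.7 and 113 TPM in pMo. AM and IM overlapped, and pMo lay below every library of the other types. Ccl6 was the only one of the 10 not called between AM and IM with the values as deposited (0.05 ± 0.19, limma adjusted p = 0.840); with median-of-ratios scaling, voom, or the ribosomal entries removed it was called higher in AM, by 0.58 in the last. It was lower in pMo than in AM (AM minus pMo 2.53 ± 0.19, adjusted p = 6.53e-07) and than in iMo (iMo minus pMo 1.74 ± 0.19, adjusted p = 8.09e-05).

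Ccl9, its neighbour on chromosome 11 (chr11:83572917-83578636 against chr11:83587886-83593087 for Ccl6, both on the minus strand), was lowest in AM. It was at 7.56, 5.66, 20.5 and 19.4 TPM there. In IM it was at 201, 312, 320 and 283 TPM and in iMo at 408, 406, 324 and 219 TPM. IM and iMo overlapped, and their difference did not pass (-0.26 ± 0.18, limma adjusted p = 0.276), although median-of-ratios scaling and voom called iMo higher. In pMo Ccl9 was at 70.3, 102, 70.5 and 87.2 TPM, between AM and the other types and without overlap with either. AM minus IM was -4.45 ± 0.18 (limma, adjusted p = 6.04e-09).

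Ccl3 spread widely within types. It was at 34.4, 51.8, 73.7 and 40.9 TPM in IM, 63.4, 121, 9.66 and 29.2 TPM in pMo, 9.30, 7.82, 42.6 and 31.7 TPM in AM and 20.6, 22.4, 5.70 and 8.31 TPM in iMo. Within AM, iMo and pMo the strains did not overlap. Over both strains IM exceeded AM (AM minus IM -1.37 ± 0.33, limma adjusted p = 0.00318) and iMo (1.88 ± 0.33, adjusted p = 0.00108), and pMo exceeded iMo (iMo minus pMo -1.58 ± 0.33, adjusted p = 0.00481). The AM minus IM call was lost with median-of-ratios, quantile normalization, voom or DBA2J alone. IM minus iMo did not pass in C57BL6J alone (0.94, limma adjusted p = 0.110), nor iMo minus pMo in DBA2J alone (-1.18, adjusted p = 0.212). The order of AM and iMo turned with strain: AM minus iMo was -1.24 within C57BL6J (limma, adjusted p = 0.0245) and 2.26 within DBA2J (adjusted p = 0.0128).

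Ccl4, which lies next to Ccl3, was lower throughout on the scale per span. It was at 3.95, 13.6, 11.3 and 11.9 TPM in IM, 32.7, 47.7, 1.41 and 7.61 TPM in pMo, 10.4, 15.7, 4.46 and 3.27 TPM in iMo and 0.618, 1.24, 4.54 and 4.36 TPM in AM. The 2 C57BL6J pMo libraries were the highest of all 16. The differences of IM from iMo (0.34 ± 0.40, limma adjusted p = 0.530) and pMo (-0.39 ± 0.40, adjusted p = 0.457) did not pass. AM minus pMo was -2.08 ± 0.40 over both strains (adjusted p = 0.000896), -4.41 within C57BL6J (adjusted p = 0.00165) and 0.26 within DBA2J (adjusted p = 0.732). AM minus IM was -1.68 ± 0.40 (limma, adjusted p = 0.00295), a call lost with quantile normalization or DBA2J alone, and AM minus iMo was -1.34 ± 0.40 (adjusted p = 0.0115), lost under all 4 other scalings.

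Between the monocyte types 5 of the 10 genes were called, 2 higher and 3 lower in iMo, where 25.3% of all genes were called, 18.9% higher and 6.36% lower. Ccl6 and Ccl9 were the higher pair, and Ccl3, Cxcl2 and Pf4 were lower in iMo. Cxcl2 was tested within each strain as well: iMo minus pMo was -3.05 within C57BL6J (limma, adjusted p = 0.00800) and -0.25 within DBA2J (adjusted p = 0.503). AM against iMo gave 7 called, 3 higher and 4 lower in AM (66.2% of genes called, 11.9% higher and 54.3% lower), and AM against pMo gave 6, 1 higher and 5 lower (61.8%, with 15.2% higher and 46.6% lower). With median-of-ratios the share of all calls higher in AM went from 17.9% to 49.5% against iMo, from 24.6% to 49.4% against pMo, and in iMo against pMo from 74.8% to 50.02%. The ligands were then 4 higher and 2 lower, 1 higher and 4 lower, and 2 higher and 3 lower.

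The strain comparison separated the ligands by cell type. DBA2J and C57BL6J differ in many alleles, and the comparison asks where RNA levels differ between them, not why. The only genome build named for both strains is mm10, and its effect on DBA2J levels and peaks was not tested. Averaged over the cell types 1 of the 10 was called, Ccl24, lower in DBA2J by -0.62 ± 0.18 (limma, adjusted p = 0.0463). Of all genes 11.7% were called, 4.37% higher and 7.31% lower. That Ccl24 call held in 9 of 26 alternatives. Ccl24 had no read in AM, and its difference in IM did not pass (-0.59 ± 0.36, limma adjusted p = 0.333). Its monocyte reads were few: 7 in C57BL6J iMo against 1 in DBA2J iMo, and 8 against 0 in pMo. Within AM 2 genes rose in DBA2J, Ccl3 and Ccl9 (3.28% of genes called, 1.99% higher and 1.3% lower). Within pMo 3 fell in DBA2J, Ccl3, Ccl4 and Cxcl2 (3.66%, with 1.36% higher and 2.3% lower). Within IM 1 fell, Ccl8 (10.5%, with 3.77% higher and 6.74% lower). Within iMo 0 passed (3.47%, with 1.31% higher and 2.16% lower), with 6 at an unadjusted p under 0.05 and 0 called by voom on the reads, where 4 had such an unadjusted p. A test of whether the strain difference itself differed between cell types called 4 of the 10, Cxcl2, Ccl3, Ccl4 and Ccl9, beside 4.03% of all genes. With 2 libraries per strain in a type, strains often fail to overlap by chance. The share of all genes without strain overlap was not worked out, so where it is given it only describes the values.

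**Figure D2:**
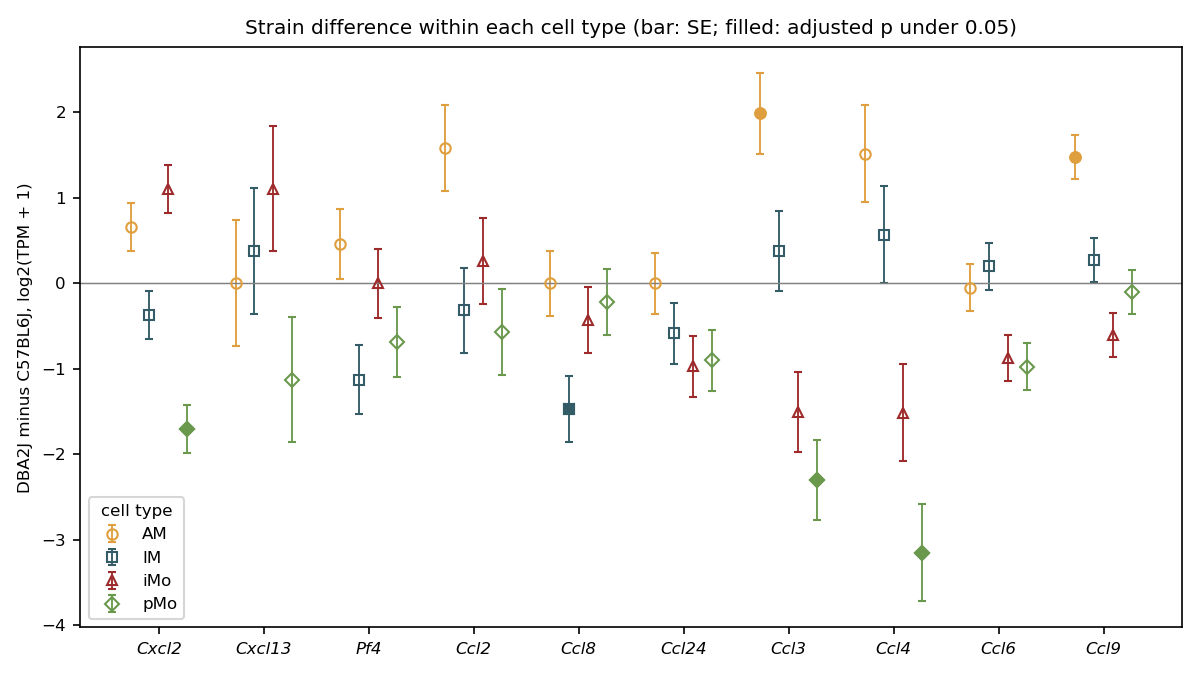
DBA2J minus C57BL6J difference of each ligand on the log2(TPM + 1) scale (y axis) within each cell type (colour and shape), with the SE as the bar; filled points passed an adjusted p under 0.05. Ccl3 and Ccl4 lie above 0 in AM and below 0 in iMo and pMo, and Cxcl2 lies above 0 in AM and iMo and below 0 in pMo.

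Ccl3 showed the opposite strain difference in AM and pMo. In AM its values of 9.30 and 7.82 TPM in C57BL6J and 42.6 and 31.7 TPM in DBA2J gave 1.99 ± 0.47 (limma, adjusted p = 0.0452). In pMo 63.4 and 121 TPM against 9.66 and 29.2 TPM gave -2.31 ± 0.47 (adjusted p = 0.0186). The strains did not overlap in either type, and the interaction had an adjusted p of 0.0123. The AM call held in 4 of the 16 fits that left out 1 library, and the pMo call in 14. It was lost without C57BL6J pMo replicate 2 or without DBA2J pMo replicate 1. The interaction held in 15 of the 16 such fits.

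Ccl4 followed Ccl3. In pMo it fell from 32.7 and 47.7 TPM in C57BL6J to 1.41 and 7.61 TPM in DBA2J, a difference of -3.15 ± 0.57 (limma, adjusted p = 0.00929). In AM the difference was 1.52 ± 0.57 and did not pass (adjusted p = 0.269), and in iMo it was -1.51 ± 0.57 (adjusted p = 0.216). The interaction had an adjusted p of 0.0210 and held in 10 of the 16 fits without 1 library. Across the 16 libraries Ccl3 and Ccl4 had a Pearson r of 0.79, a description over libraries that share groups. The pMo call of Ccl4 was lost without the same 2 libraries, C57BL6J replicate 2 or DBA2J replicate 1.

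Ccl3 and Ccl4 are also expressed by T and NK cells. The 11 listed markers of those cells summed to 159 and 198 TPM in C57BL6J pMo against 19.2 and 83.1 TPM in DBA2J pMo, and to 71.0 and 118 TPM against 13.6 and 8.48 TPM in iMo. In AM they summed to 2.76 and 3.03 TPM in C57BL6J against 6.46 and 12.9 TPM in DBA2J, and in IM to 32.2 and 52.0 TPM against 32.0 and 23.8 TPM. Of 9 tested, 3 were lower in DBA2J pMo, 4 in DBA2J iMo and 1 in DBA2J IM (2.3%, 2.16% and 6.74% of all genes). None was called in AM or higher in any type. Genes of cytotoxic cells and Ccl5, itself a chemokine ligand, carried much of the sums. Nkg7 averaged 55.6 TPM in C57BL6J pMo and 15.1 TPM in DBA2J pMo, and Gzmb 34.3 and 3.94 TPM. Ccl5 averaged 42.3 TPM in C57BL6J pMo and 19.3 TPM in DBA2J pMo, and 25.0 and 4.43 TPM in iMo. Gzma and Gzmb were called in both monocyte types. Cd3e, which encodes a chain of the T cell receptor complex, was at most 1.41 TPM in pMo and did not pass (0.65 ± 0.35, limma adjusted p = 0.372). In IM the sums were no higher in DBA2J, whereas Ccl3 and Ccl4 differed there by 0.37 and 0.57 (limma, adjusted p = 0.669 and 0.580). The part of these cells in the Ccl3 and Ccl4 differences was not tested. In bulk samples fewer cells of a type and less RNA per cell cannot be told apart.

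Cxcl2 fell in DBA2J pMo from 14.3 and 20.1 TPM to 4.85 and 4.22 TPM, by 1.70 ± 0.28 on the log2 scale (limma, adjusted p = 0.00597). In iMo it was at 1.85 and 0.648 TPM in C57BL6J and 3.06 and 4.33 TPM in DBA2J (1.10 ± 0.28, adjusted p = 0.0638), and in AM the difference was 0.65 ± 0.28 (adjusted p = 0.389). Its interaction, with an adjusted p of 0.00887, held in all 16 fits without 1 library; the pMo call was lost without C57BL6J pMo replicate 2. A list of 20 immediate early and NF-kB feedback genes, induced quickly when cells are stimulated, had 19 tested members. By strain over all types 11 of these were called, 1 higher and 10 lower in DBA2J (4.37% and 7.31% of all genes). Within types fewer were called: 4 lower in pMo, 3 lower in iMo, 2 lower in IM, and 1 higher and 1 lower in AM. Over all genes 2.3%, 2.16%, 6.74%, 1.99% and 1.3% were called in those directions. The sum of the list was 4141 and 3388 TPM in C57BL6J pMo against 2277 and 2272 TPM in DBA2J pMo, with Zfp36, Junb, Fos and Ier2 leading. The sum was also lower in DBA2J in the types where Cxcl2 had the opposite sign: 5472 and 4740 TPM against 3064 and 3135 TPM in iMo, and 1069 and 1174 TPM against 983 and 801 TPM in AM. In IM it was 5133 and 5398 TPM against 3993 and 3573 TPM. Between cell types 18 of the 19 were lower in AM than in IM and 0 higher (61.1% and 9.19% of all genes). In IM against iMo 10 were higher and 2 lower (21.7% and 15.6%), and against pMo 8 and 3 (30.3% and 9.2%). No member was at 0 throughout a type. The list's part in the ligand differences by strain or cell type, of Cxcl2 included, was not tested.

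Ccl9 rose in DBA2J AM from 7.56 and 5.66 TPM to 20.5 and 19.4 TPM, by 1.47 ± 0.26 (limma, adjusted p = 0.00741). The strains did not overlap. The call was lost without C57BL6J AM replicate 2 or either DBA2J AM library. In iMo the difference was -0.61 ± 0.26 (adjusted p = 0.279), and the interaction (adjusted p = 0.0295) held in 6 of the 16 fits without 1 library.

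Ccl8 in IM was at 53.9 and 129 TPM in C57BL6J and 32.6 and 26.7 TPM in DBA2J, a difference of -1.47 ± 0.38 (limma, adjusted p = 0.0333). The strains did not overlap, but the call was lost without C57BL6J IM replicate 2, either DBA2J IM library or any of the 4 AM libraries, and held in 9 of 16 such fits. Of the 10 interstitial macrophage markers 1 was called and lower in DBA2J IM (6.74% of all genes). They summed to 10666 and 19465 TPM in C57BL6J IM against 9667 and 10345 TPM in DBA2J IM. The neutrophil markers, with 2 of 7 tested called and higher (3.77% of all genes), summed to 2875 and 3122 TPM against 4728 and 4085 TPM. The part of either in the Ccl8 difference was not tested. Pf4 had the same order as Ccl8 in IM, 319 and 791 TPM against 208 and 252 TPM, and did not pass (-1.13 ± 0.40, adjusted p = 0.103). Cxcl13 did not separate by strain in IM (0.38 ± 0.73, adjusted p = 0.802). The Ccl6 differences in the monocyte types did not pass: -0.87 ± 0.27 in iMo (limma, adjusted p = 0.135) and -0.98 ± 0.27 in pMo (adjusted p = 0.0873).

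Of 27 other chemokine ligands 16 were tested. In AM against IM 2 were higher and 11 lower, where 9.19% and 61.1% of all genes were. In IM against iMo 9 were higher and 0 lower, beside 21.7% and 15.6% of all genes. In IM against pMo 10 were higher and 1 lower, beside 30.3% and 9.2%. Their median was 1.55 for IM minus iMo and 2.00 for IM minus pMo, against 0.10 and 0.26 over all genes. Cxcl16, which exists as a membrane-bound and a shed form, was at 115 TPM ± 41.0 (SD, n = 4) in IM and at most 16.7 TPM elsewhere. Ccl7, a CCR2 ligand like Ccl2, was at 32.3 TPM ± 12.3 in IM and at most 2.46 TPM elsewhere. Cxcl10, the interferon-induced CXCR3 ligand, was highest in iMo at 41.9 to 68.7 TPM, with 14.2 to 44.8 TPM in IM. Ccl5 was highest in pMo, at 6.16 to 43.6 TPM.

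Of 11 receptors and decoys of these ligands 8 were tested, and 7 were lower in AM than in IM with 0 higher, beside 61.1% of all genes lower and 9.19% higher. Ccr2, the receptor of Ccl2, was at 973 to 1713 TPM in iMo, 367 to 1119 TPM in IM, 113 to 248 TPM in pMo and averaged 5.76 TPM in AM. Ccr1, the receptor of Ccl3, Ccl6 and Ccl9, was at 111 to 319 TPM in IM and at most 41.9 TPM elsewhere. By strain over all types 4 of the 8 receptors were called, all higher in DBA2J, beside 4.37% of all genes called higher. Cxcr2, the receptor of Cxcl2, was at 119 to 316 TPM in IM and at most 2.71 TPM elsewhere, and it is also 1 of the neutrophil markers.

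Genes of alternative activation, a program of tissue macrophages that often includes Ccl8 and Ccl24, were set beside them. Of 13 tested 12 were higher in IM than in iMo and 12 higher than in pMo, with 0 lower in either, and 11 were lower and 1 higher in AM than in IM. Over all genes 21.7%, 30.3%, 61.1% and 9.19% were called in those directions. Retnla was at 390 to 1342 TPM in IM and at most 68.5 TPM elsewhere, and Cbr2 at 161 to 482 TPM and at most 14.6 TPM. Chil3 was the gene higher in AM, at 311 to 1119 TPM. Stab1 in IM averaged 428 TPM in C57BL6J and 92.4 TPM in DBA2J, the same order as Ccl8 and Pf4 there. Retnla had the opposite order in IM, 545 TPM in C57BL6J and 1276 TPM in DBA2J. By strain within IM 2 of the 13 were called lower in DBA2J and 0 higher, beside 6.74% and 3.77% of all genes.

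The genes whose log2 levels were most like each ligand over the 16 libraries, by Pearson r and as a description, were these. Ccl8 was most like Rhobtb1 (r = 0.99), P3h2 (0.99) and Gas6 (0.99), and Ccl24 like Il1r2 (0.99), Ccl8 (0.98) and Itsn1 (0.98). Pf4 was most like Hpgds, Gas6 and Olfml3 (0.98, 0.97 and 0.97), Cxcl13 like Cd209g, Timd4 and Kcnk13 (0.98, 0.98 and 0.97), and Cxcl2 like Fhl3, Tdrkh and Pf4 (0.95 each). Ccl9 followed Irf4, Gypc and Cmtm6 (0.98 each), Ccl2 followed Sash1, Baiap2 and Tal1 (0.95, 0.95 and 0.93), and Ccl6 followed Cstb, Ptger2 and Klhl9 (0.95, 0.94 and 0.94). Ccl3 had the weakest likenesses, with Gpcpd1, Mphosph6 and Impact (0.86, 0.85 and 0.82), and Ccl4 was most like Chmp2b, Fam126a and Klrd1, an NK cell receptor gene (0.90, 0.88 and 0.88). The libraries share cell types and depth, so any gene that separates the types the same way scores high.

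Open chromatin was described by peaks around the annotated starts. The 8 lists, 1 per cell type and strain, held 24429 to 70013 peaks, each with the authors' score, whose scale no source used here gives. A peak overlapping the 1 kb on either side of the start was found in 42 of the 80 pairs of gene and list. By list, C57BL6J first, that was 5 and 7 of the 10 ligands in AM (63.2% and 69.3% of all tested genes), 8 and 4 in IM (84.9% and 72.2%), 4 and 3 in iMo (73.4% and 76.3%) and 8 and 3 in pMo (75.8% and 72.8%). The ligands' share was within 1 gene of that of all genes in AM DBA2J, pMo C57BL6J and IM C57BL6J, and below it in the other lists. A peak centred within 20 kb was found in 58 pairs. Cxcl2 and Ccl2 had a start-site peak in all 8 lists, as did 54.3% of the tested genes. Ccl8 and Cxcl13 had none in any list, as did 13.7%. The others lay between, with Ccl3 in 7 lists, Ccl24 in 5, Ccl6 and Ccl9 in 4, and Ccl4 and Pf4 in 3.

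**Figure D3:**
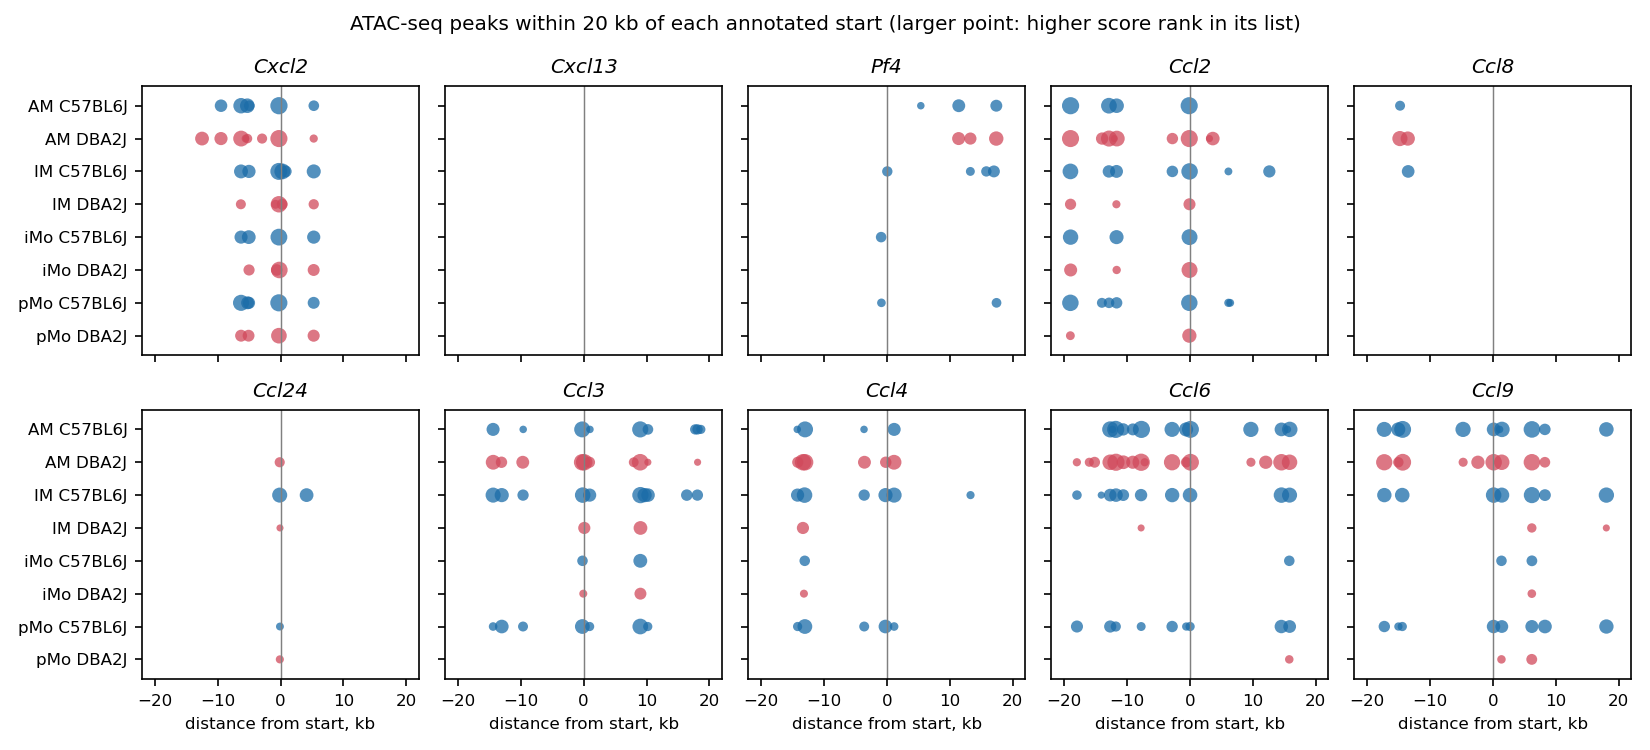
Distance of ATAC-seq peak centres from the annotated start of each ligand, in kb (x axis, positive in the direction of transcription), in the 8 peak lists (y axis), coloured by strain; a larger point ranks higher by the authors' score within its list. Cxcl2 and Ccl2 have a peak at the start in every list, Cxcl13 has no peak within 20 kb in any list, and the DBA2J lists of IM and pMo and both iMo lists hold few peaks near Ccl6 and Ccl9.

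The 6 genes highest in IM thus ranged from a peak in every list to none. Cxcl2 had its best peak 185 to 265 bases before the start in all lists, also in the iMo lists, where RNA was at 0.648 to 4.33 TPM. In IM alone, in both strains, a further peak lay 273 and 287 bases after the start. Ccl2 had a peak 35 to 99 bases before the start in every list. Cxcl13, at 91.5 to 199 TPM in IM, had no peak within 20 kb in any list. Its nearest peak lay 21.7 kb before the start in the IM DBA2J list and 37.4 kb before it in the IM C57BL6J list. The AM DBA2J list also held one, 21.8 kb before the start, although Cxcl13 had no read in AM. Ccl8 had peaks 13.5 to 14.8 kb before its start in both AM lists and the IM C57BL6J list, each of them nearer to the start of another gene. Ccl24 had a start-site peak in both IM lists and also in the AM DBA2J list and both pMo lists. For Pf4 the IM C57BL6J list held a peak 94 bases after the start, and the iMo and pMo C57BL6J lists held one 886 and 841 bases before it.

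Ccl6 and Ccl9 sit in a stretch rich in AM peaks. Within 20 kb of the Ccl6 start 13 peaks were listed in C57BL6J AM and 16 in DBA2J AM, the most of any of the 80 pairs, against 10 and 1 in IM, 1 and 0 in iMo, and 9 and 1 in pMo. The windows of the neighbours overlap and share peaks, so the Ccl9 counts of 10 and 9 in AM are not independent of these. Ccl6 RNA was at 294 to 691 TPM in iMo with no start-site peak in either iMo list, and Ccl9 RNA at 219 to 408 TPM there, likewise with none. In AM, with Ccl9 at 5.66 to 20.5 TPM, both lists held a Ccl9 start-site peak 117 bases after the start.

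Around Ccl3 and Ccl4 the pMo lists differed by strain. The pMo C57BL6J list held 7 peaks within 20 kb of Ccl3 and 5 within 20 kb of Ccl4. All 5 were among the 7, so that the neighbours shared them. The nearest lay 200 bases before the Ccl3 start and 202 bases before the Ccl4 start. The pMo DBA2J list held 0 around either gene, the nearest being 72.1 kb from Ccl3. In AM the Ccl4 start had a peak in DBA2J 154 bases before it and none in C57BL6J. In pMo the lists had the direction of the called RNA differences, while the AM difference of Ccl4 was not called. Ccl3, called higher in DBA2J AM, had start-site peaks in both AM lists. Within 20 kb it had 9 peaks in C57BL6J AM and 10 in DBA2J AM. In iMo both genes had less RNA in DBA2J, not called, and both lists held 2 peaks near Ccl3 and 1 near Ccl4. The lists also differ in length: 45534 and 26592 peaks for pMo, and 32668 and 43690 for AM. Without replicate lists no test of a peak difference was made. IM showed the same imbalance for Ccl3, 10 peaks in C57BL6J against 2 in DBA2J, with lists of 70013 and 24429 peaks and no called RNA difference.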

How the data were processed

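RNA levels are the authors' deposited TPM, computed on gene annotation against mm10; STAR, Bowtie and HOMER are named without versions or roles, per the submitters' processing notes. PolyA RNA was sequenced strand-specifically, per the labels' protocols. Peak lists were deposited as 1 list per cell type and strain with a score for each peak, and distances were measured from peak centres to annotated starts. The 10 genes, the gene lists and the tests were chosen with earlier results of these data known. The 12277 genes averaging 1 TPM or more were fitted in limma 3.58.1 (R 4.3.3) on log2(TPM + 1), with 8 group means, 8 residual degrees of freedom, eBayes with a mean-variance trend and Benjamini-Hochberg adjustment over all genes per contrast. Named genes were all 10 ligands, the 3 genes most like each and up to 4 of the most abundant genes of each pathway list; Klrd1 and other genes singled out by role were named after their values were seen. Reads were worked out from TPM and span with Python 3.11.15, numpy 2.4.6 and pandas 2.3.3 and entered voom as an alternative chosen after seeing the data; depth ranged from 5936096 to 15886142 reads per library without the ribosomal entries. Floors of 3 reads cover counting error only, not the scaling between libraries. The fit was tested on simulated data. Replicate numbers were taken not to pair samples: residuals of same-numbered libraries correlated from -0.07 to 0.20 over 28 pairs of groups (5 over 0.1), and from -0.07 to 0.15 over the 12 pairs of 1 strain. Some items are not reported here.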

Additional observations from a re-analysis of the deposited data

Results flagged for a closer look

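The strain difference itself differed between cell types for 4 of the 10 ligands, by the interaction test of limma over all 16 libraries. The adjusted p was 0.00887 for Cxcl2, 0.0123 for Ccl3, 0.0210 for Ccl4 and 0.0295 for Ccl9. Ccl3 was higher in DBA2J in both AM libraries and lower in both pMo libraries.

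In 36 groups of 4 libraries of a cell type, 4 had a library set apart from the other 3 on the log2(TPM + 1) scale, by Dixon's 95% critical value for the gap over the range; chance alone sets apart about 1 in 20 groups. Ccl4 in C57BL6J IM replicate 1 was low at 3.95 TPM (gap 0.841 of the range). In the other 3 cases 1 library had reads and the others none, so the gap was the whole range (1). Ccl8 was at 0.818 TPM in C57BL6J iMo replicate 2 and at 0.355 TPM in C57BL6J pMo replicate 1, 1 read in each. Cxcl13 was at 3.63 TPM in DBA2J iMo replicate 1, from 24 reads.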

How the results depend on the processing

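No call between strains is firm. Of 50 calls of a ligand, 43 between cell types and 7 between strains, 29 of the former and 0 of the latter held in every alternative. Leaving out 1 library gave 9 to 9 called ligands for AM minus IM, 6 to 7 for AM minus iMo, 4 to 7 for AM minus pMo, 8 to 8 for both IM minus iMo and IM minus pMo, and 5 to 6 for iMo minus pMo. By strain it gave 0 to 3 over all types, 0 to 2 in AM, IM and iMo each, 0 to 4 in pMo, and 1 to 5 for the interaction. Within DBA2J alone AM minus pMo and iMo minus pMo each had 3 called. Over all types the strain count was 0 with log2(TPM + 5), no filter, a mean of at least 5 TPM or the replicate block, and 2 with voom. In AM it was 1 with log2(TPM + 5), no filter or eBayes without a trend. In IM it was 0 with log2(TPM + 0.1) or a mean of at least 5 TPM and 2 with voom, and in iMo 1 with log2(TPM + 0.1). The replicate block changed no other count by over 1.5 times. Peaks scoring above their list's median left 36 pairs with a peak within 20 kb. Directions turned within single strains: Ccl3 AM minus iMo was -1.24 in C57BL6J, and in DBA2J Ccl3 AM minus pMo was 1.07, Ccl4 AM minus iMo 0.17, Ccl4 AM minus pMo 0.26 and Cxcl2 AM minus pMo 0.94; the cause was not tested. Scaling moved the share of all calls that were higher in AM than in IM from 13.1% as deposited to 53.5% with median-of-ratios. Depth limits genes near the floor of 3 reads, at most 3.52 TPM for Pf4 averaged over a group.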
